A study of Drosophila melanogaster with 60 samples.

Results

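The question addressed here was how a cold environment changed transcript levels in the fat tissue of female flies in the hours before lights off. The comparison comprised 12 of the 60 RNA-seq libraries of a time series of Drosophila melanogaster, namely wild-type flies (w1118) kept at 18 °C or 25 °C and sampled at zeitgeber time (ZT) 8, 10 and 12. ZT counts hours after lights on in a day of 12 h light and 12 h dark. The libraries were chosen by these labels alone, with 6 at 18 °C and 6 at 25 °C, which is 2 replicate samplings at each time and temperature. Both groups were mated females of the w1118 stock, about 3 days old at the start, that ate the same sucrose and yeast diet and were entrained at their temperature for 5 days. Each sample pooled 10 flies, and its abdominal fat stayed on the epidermis while gut, ovaries and Malpighian tubules were dissected away. The series also sampled wild-type flies at 9 other times and Clk-Jrk flies, which carry a mutant allele of Clock, and the Clk-Jrk libraries were not analysed here.

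The insect fat body does work that liver and white fat share in mammals. It stores lipid and glycogen, secretes yolk, lipoproteins and immune peptides into the blood, and inactivates foreign compounds. It also holds a circadian clock of its own, in which CLOCK (CLK) and CYCLE (CYC) switch on period (per), timeless (tim), vrille (vri), Pdp1 and clockwork orange (cwo), whose products feed back on CLK activity or on transcription of Clk. Flies are ectotherms, so a lower ambient temperature cools the tissue itself, and insects in the cold are known to alter membrane lipids, fuel stores and hormone signals.

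Transcripts that mark adult fat tissue were present in every library, with at least 2458 CPM (counts scaled to library size) for apolpp, the precursor of the apolipophorins that carry lipid in the blood, and at least 5056 CPM for Desat1, a fatty acid desaturase. RNA of tissues that the dissection removes was present as well and was uneven. The 36 gut markers summed to between 45.2 and 7480.0 TPM (transcript abundance scaled to length and library total) at 18 °C, with a median of 1171, and to between 27.3 and 4742 TPM at 25 °C, with a median of 48.6. In 4 libraries the sum exceeded 1000 TPM, 3 of them at 18 °C (ZT 8 and ZT 10 of replicate 1 and ZT 12 of replicate 2) and 1 at 25 °C (ZT 10 of replicate 1), and the last also held 1545 TPM of photoreceptor and head markers, against 46.9 to 97.2 TPM in the other libraries. Ovary markers summed to between 213 and 6019 TPM at 18 °C and between 813 and 4271 TPM at 25 °C. Mitochondrially encoded RNA split the libraries by replicate, with 61840.0 to 91100.0 TPM in replicate 1 and 29300.0 to 42640.0 TPM in replicate 2. Total estimated counts ran from 4923858 to 23316995 at 18 °C and from 8804940 to 15520028 at 25 °C. Since bulk tissue was sequenced, fewer cells of a type and less RNA per cell cannot be told apart, and the temperature of a group cannot be told apart from its incubators, which the labels do not name per sample.

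**Figure D1:**
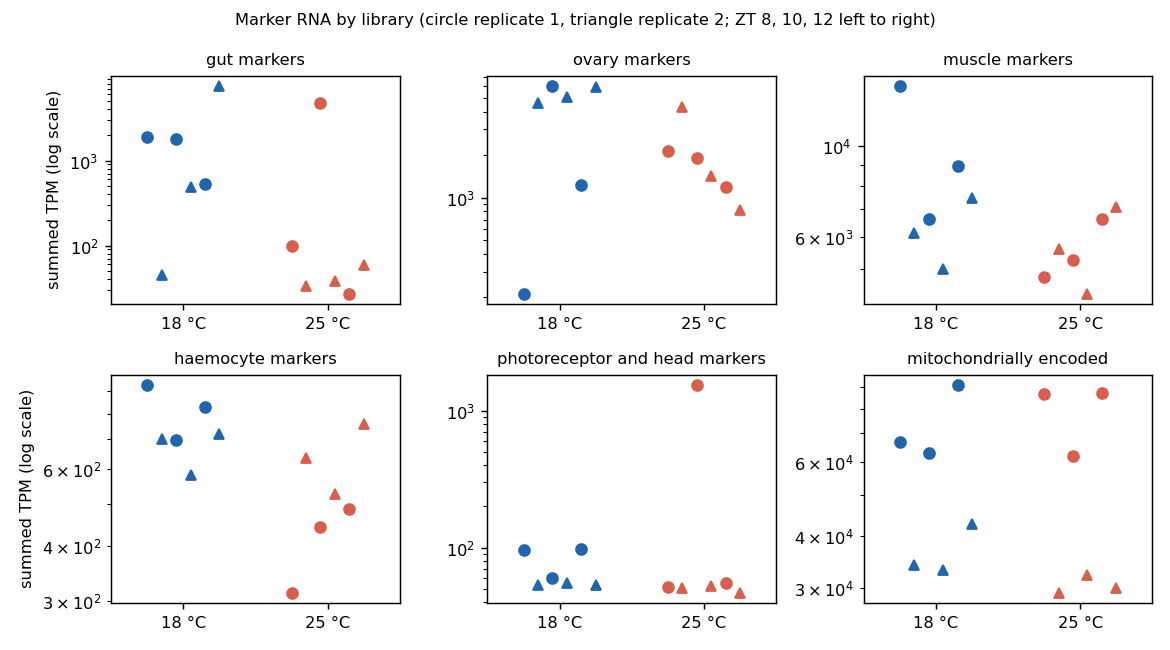
Summed TPM of 5 marker lists of other tissues or cell types and of mitochondrially encoded RNA (vertical axes, log scale) in the 6 libraries at 18 °C (blue, left) and the 6 at 25 °C (red, right), 1 point per library, circles for replicate 1 and triangles for replicate 2, with ZT 8, 10 and 12 in order within each temperature. Gut RNA reached 7480.0 TPM in a library at 18 °C and 4742 TPM in a library at 25 °C, and mitochondrially encoded RNA was lower in the triangles of both temperatures.

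Cold fat tissue, collected with its attached epidermis, held less RNA of the clock activator Clk in the late day and more of the clock repressor cwo. The acyl reductase and elongase genes Sgp, CG33110, CG9458 and CG1441, the insulin-like peptide gene Ilp6 and the immune transcription factor gene Rel were higher. The acyltransferase gene Agpat4, the larval storage protein gene Lsp1beta and the P450 gene Cyp4s3 were lower. The main test was edgeR's quasi-likelihood test with ZT as a block and no replicate term. In it, 205 of 8864 tested genes passed at a Benjamini-Hochberg adjusted p under 0.05 (2.31%), of which 129 were higher at 18 °C (1.46%) and 76 were lower at 18 °C (0.857%). Their log2 differences, 18 °C minus 25 °C, ran from 0.43 to 2.60 among the higher genes and from -3.31 to -0.39 among the lower genes, and 40 and 24 of them differed at least 2-fold. Of the 129 higher genes, 127 were higher at 18 °C in 6 of 6 comparisons at the same ZT and replicate number, and of the 76 lower genes, 76 were lower in 6 of 6. The same libraries called these genes, so such agreement follows largely from the selection and is not further evidence. The median over all tested genes was -0.03.

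The 205 calls sat close to the threshold. The smallest adjusted p was 0.0151, 1881 genes (21.2%) had an unadjusted p under 0.05, and the count depended on single libraries. Among libraries at 18 °C, it was 54 without ZT 8, replicate 1, 96 and 0 without replicates 1 and 2 of ZT 10, and 124 and 84 without replicates 1 and 2 of ZT 12. Among libraries at 25 °C, it was 18 and 0 without replicates 1 and 2 of ZT 8, 22 without ZT 10, replicate 2, and 33 and 55 without replicates 1 and 2 of ZT 12. It was 203 and 229 without either of the remaining libraries and 0 without the 4 libraries with gut RNA, where 1236 genes had an unadjusted p under 0.05. By limma on log2(TPM + 1), where the median of all genes was shifted by 0.12, the split was 319 higher and 63 lower. With the replicate number as a block, 596 genes passed (6.72%), 346 higher (3.9%) and 250 lower (2.82%), among them the same 205. Adjusted p-values from this blocked fit are given below where they change a call, and are named as such.

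**Figure D2:**
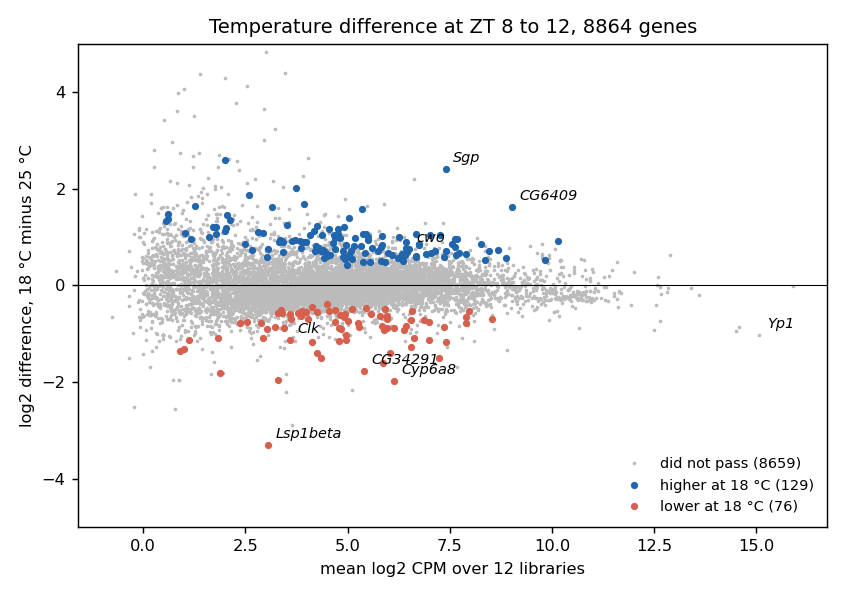
Log2 difference between 18 °C and 25 °C at ZT 8, 10 and 12 (vertical axis, 18 °C minus 25 °C) against mean log2 CPM over the 12 libraries (horizontal axis), 1 point per tested gene, blue for the 129 genes higher at 18 °C, red for the 76 lower and grey for the rest. Called genes lie at all but the highest expression levels, Lsp1beta is the lowest called point at -3.31, and 3 genes lie beyond the vertical axis.

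Within the clock, the activator gene Clk was lower and the repressor gene cwo higher at 18 °C, and per and tim were higher in each of the 6 matched comparisons without passing the test. At 18 °C, Clk (FBgn0023076, chromosome 3L, 7763233 to 7775603 in the BDGP6.54 annotation) had 9.12 and 9.44 CPM at ZT 8, 10.0 and 6.42 CPM at ZT 10, and 8.82 and 5.07 CPM at ZT 12. At 25 °C it had 28.1 and 18.5 CPM at ZT 8, 16.1 and 15.1 CPM at ZT 10, and 15.0 and 16.9 CPM at ZT 12. The groups did not overlap, and the lowest value at 25 °C, 15.0 CPM, lay above the highest at 18 °C. Clk fell by 1.13 ± 0.18 on the log2 scale (SE, n = 6 and 6), 2.19-fold (edgeR adjusted p = 0.0198).

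RNA of cwo (FBgn0259938, chromosome 3R, 10388258 to 10400752), whose protein represses CLK targets, had 129 and 93.7 CPM at ZT 8, 87.7 and 95.0 CPM at ZT 10, and 143 and 176 CPM at ZT 12 at 18 °C. At 25 °C it had 66.5 and 64.8 CPM at ZT 8, 75.6 and 57.4 CPM at ZT 10, and 83.0 and 72.2 CPM at ZT 12. These groups did not overlap either, with the widest gap at ZT 12. The rise was 0.75 ± 0.14 on the log2 scale, or 1.69-fold (edgeR adjusted p = 0.0298).

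For per, which encodes the clock's main repressor, the 6 libraries at 18 °C ran from 17.1 to 51.3 CPM with a median of 29.2, and the 6 at 25 °C from 7.83 to 20.02 CPM with a median of 14.9. The single library at 18 °C inside the range of 25 °C was that of ZT 12, replicate 1. The log2 difference of per was 1.12 ± 0.27 (edgeR adjusted p = 0.0569, and 0.0322 in the blocked fit). RNA of tim, whose protein partners PER and is degraded in light, ran from 280.1 to 673 CPM at 18 °C with a median of 399, and from 105 to 342 CPM at 25 °C with a median of 236. Its log2 difference was 0.98 ± 0.24 (edgeR adjusted p = 0.0578, and 0.0418 in the blocked fit). The gap in tim was widest at ZT 8, at 1.64 on the log2 scale, and the 2 libraries of that time were the lowest at 25 °C.

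The rest of the loop did not pass. RNA of vri, a repressor of Clk, had a log2 difference of 0.45 ± 0.25 (edgeR adjusted p = 0.32) and was higher at 18 °C in 4 of 6 matched comparisons. Pdp1, an activator of Clk, had 0.28 ± 0.17 (adjusted p = 0.374). RNA of cry, the blue-light photoreceptor that resets the clock, was lower at 18 °C in 6 of 6 matched comparisons, with 88.8 to 181 CPM at 18 °C and 129 to 227 CPM at 25 °C, and did not pass (-0.37 ± 0.21, adjusted p = 0.339). The partner gene of Clk, cyc, ran from 35.6 to 52.0 CPM at 18 °C and from 34.9 to 55.7 CPM at 25 °C, a log2 difference of -0.07 ± 0.13 (adjusted p = 0.776) whose sign turned on the TPM scale. Of the 15 core clock genes, 1 passed as higher and 1 as lower, where 2.31% of all tested genes passed. The median log2 difference of the 15 was 0.17. The kinase and turnover genes among them (CkIIalpha, CkIIbeta, dco, sgg, nmo, slmb and jet) lay between -0.27 for jet and 0.29 for sgg.

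**Figure D3:**
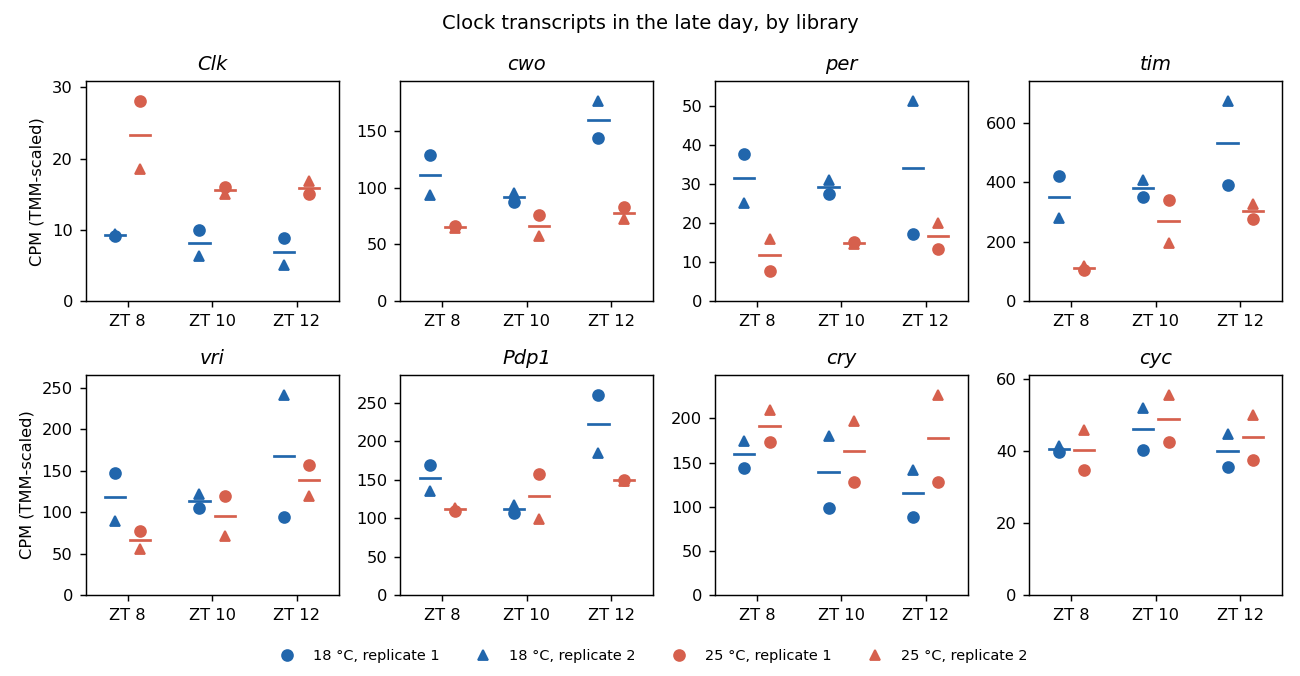
CPM of 8 clock transcripts (vertical axes, from 0) at ZT 8, 10 and 12 (horizontal axes) at 18 °C (blue) and 25 °C (red), 1 point per library, circles for replicate 1, triangles for replicate 2, and bars for the mean of the 2. The blue points of Clk lie below 11 CPM at each time and the red points at 15.0 CPM or above, the blue points of cwo lie above the red at each time, and the points of cyc overlap.

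Fatty acyl elongation and reduction are steps that make very long chains for waxes, hydrocarbons and membrane lipids. Of 19 tested genes in a list of acyl reductases and elongases, 4 rose, 0 fell and 15 did not pass. Over all tested genes 2.31% passed, and 6.72% did with the replicate block, which called 9 of the list as higher and 1 as lower. The list's median log2 difference was 0.30. That list was drawn up with results of these samples in view and is not independent evidence of its direction. Sgp (FBgn0032055, chromosome 2L, 8519690 to 8521809), a member of that list, had 744 and 280.1 CPM at ZT 8, 286 and 283 CPM at ZT 10, and 638 and 513 CPM at ZT 12 at 18 °C. At 25 °C Sgp had 154 and 63.4 CPM at ZT 8, 38.6 and 47.3 CPM at ZT 10, and 211 and 27.4 CPM at ZT 12. The lowest library at 18 °C stood above the highest at 25 °C, and the rise was 2.41 ± 0.45 on the log2 scale, 5.32-fold (edgeR adjusted p = 0.0298).

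The elongase-family gene CG9458 (FBgn0037765, chromosome 3R, 9818914 to 9819877) ran from 354 to 575 CPM at 18 °C with a median of 386, and from 152 to 343 CPM at 25 °C with a median of 242. CG33110, of the same family, ran from 105 to 211 CPM at 18 °C with a median of 144, and from 59.8 to 96.5 CPM at 25 °C with a median of 81.1. The groups did not overlap for either gene, which rose 1.81-fold and 1.82-fold (edgeR adjusted p = 0.0298 and 0.0276). CG1441 rose by 0.78 ± 0.16 on the log2 scale (adjusted p = 0.0375), and its ranges overlapped. The elongase genes CG31522, CG9459 and CG18609 had log2 differences of 0.999, 0.77 and 0.82, were higher at 18 °C in 6 of 6 matched comparisons and did not pass without the block (blocked adjusted p = 0.0106 for each). DESeq2 called these 3 genes too, and CG9459 passed in 8 of 31 alternatives. The female-biased elongase gene eloF went the other way, with -0.49 ± 0.17 (adjusted p = 0.137, and 0.0457 in the blocked fit), and CG17560 had 0.08 ± 0.17. Several of these genes are close paralogs, and reads shared between copies may have been divided by the authors' quantification. Of 14 tested oenocyte and epidermis markers, 11 were higher and 3 lower at 18 °C, with a median of 0.88. That median was uneven, at 1.28 in replicate 1 and 0.34 in replicate 2, and 1.03, 0.75 and 0.05 at ZT 8, 10 and 12. The part of such attached cells in the differences of the reductase and elongase genes was not tested.

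Fat synthesis and storage showed opposite moves of single enzymes. Of 28 tested genes, 2 rose, 1 fell and 25 did not pass, where 2.31% of all tested genes passed. The list's median was 0.08. With the replicate block, which called 6.72% of all tested genes, 4 rose and 2 fell. Baldspot, the fly homologue of the elongase ELOVL6, ran from 126 to 213 CPM at 18 °C with a median of 166, and from 95.1 to 120.2 CPM at 25 °C with a median of 104. Its groups did not overlap, and it rose by 0.68 ± 0.13 on the log2 scale (edgeR adjusted p = 0.0333). Agpat4 and Agpat3 encode acyltransferases of the same step toward phosphatidic acid, the shared precursor of triglyceride and phospholipid, and they moved apart. Agpat4 (FBgn0036622, chromosome 3L, 16378974 to 16381570) ran from 27.3 to 66.6 CPM at 18 °C with a median of 39.1, and from 75.3 to 121 CPM at 25 °C with a median of 111, without overlap. It fell by 1.40 ± 0.19 on the log2 scale, 2.63-fold (edgeR adjusted p = 0.0151), while Agpat3 rose by 0.53 ± 0.12 (adjusted p = 0.0432). Desat1 had 0.63 ± 0.15 (adjusted p = 0.0545, and 0.027 in the blocked fit) and the sugar-sensing transcription factor gene Mondo 0.41 ± 0.10 (adjusted p = 0.0567, and 0.0319 in the blocked fit), both higher in 6 of 6 matched comparisons.

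Other lipid genes were named after their values were seen, so their direction describes these genes alone. Pisd, phosphatidylserine decarboxylase, ran from 63.9 to 196 CPM at 18 °C with a median of 122, and from 188 to 309 CPM at 25 °C with a median of 274. It fell 2.25-fold (edgeR adjusted p = 0.0387), with the lowest library at 25 °C just under the highest at 18 °C. The secreted phospholipase A2 gene GIIIspla2 fell by 0.92 ± 0.19 on the log2 scale, the sphingolipid regulator ORMDL by 0.75 ± 0.12 and the dehydratase gene Hacd2, which acts in chain elongation, by 0.49 ± 0.10 (adjusted p = 0.035, 0.0198 and 0.0397), and for each of these 3 genes the groups did not overlap. The diacylglycerol kinase gene Dgk rose by 0.91 ± 0.13 and the sphingosine kinase gene Sk1 by 0.85 ± 0.18 (adjusted p = 0.0151 and 0.0423), again without overlap. In a membrane lipid synthesis list 0 of 12 genes passed, and in a list of lipolysis and fatty acid oxidation 0 of 24, where 2.31% of all tested genes did. Their medians were 0.13 and 0.04. The block, which called 6.72% of all tested genes, called 1 lipolysis and oxidation gene as lower.

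Single genes of lipid uptake were called in both directions. The lipophorin receptor gene LpR1 had 439 to 626 CPM at 18 °C, median 533, against 234 to 487 CPM at 25 °C, median 313, with overlap, and rose by 0.73 ± 0.14 on the log2 scale (edgeR adjusted p = 0.0327). Among genes of the CD36 scavenger receptor family, emp rose by 0.72 ± 0.14, Snmp1 by 1.69 ± 0.30 and CG40006 by 0.84 ± 0.17 (adjusted p = 0.0306, 0.0298 and 0.0333). CG7227, of the same family, fell by 1.51 ± 0.28, to 6.85 to 19.9 CPM at 18 °C, against 23.6 to 51.0 CPM at 25 °C (adjusted p = 0.0298). The groups did not overlap for any of these 4 CD36-family genes, of which emp and CG40006 were named after their values were seen, as were LpR1 and Indy. Indy, a plasma membrane citrate transporter known in flies for its effect on fat storage, rose 1.48-fold, with 484 to 732 CPM at 18 °C and 288 to 461 CPM at 25 °C (adjusted p = 0.0484).

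**Figure D4:**
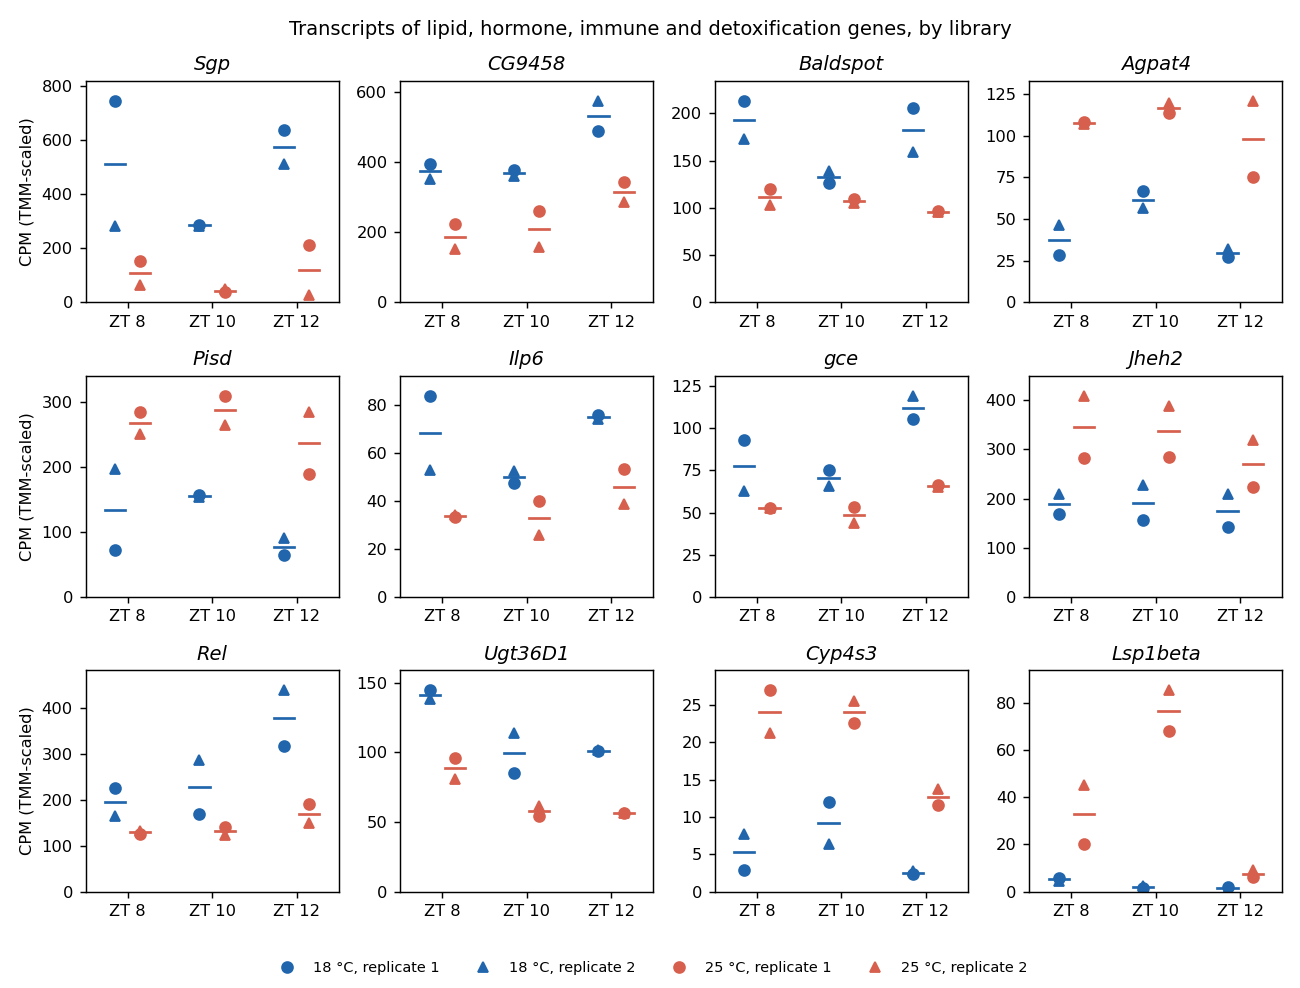
CPM of 12 transcripts of lipid, hormone, immune, detoxification and storage genes (vertical axes, from 0) at ZT 8, 10 and 12 (horizontal axes) at 18 °C (blue) and 25 °C (red), 1 point per library, circles for replicate 1, triangles for replicate 2, and bars for the mean of the 2. Points of Sgp at 18 °C lie at 280.1 CPM or above and those at 25 °C at 211 CPM or below, Agpat4 and Lsp1beta are lower at 18 °C at each time, and Jheh2 is lower at 18 °C within each replicate.

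Secreted and storage proteins of the fat body were lower or did not pass. Of 12 tested genes of that list, 0 rose, 1 fell and 11 did not pass, where 2.31% of all tested genes passed. The median log2 difference was -0.88, against -0.34 without the 4 libraries with gut RNA and -0.15 at the other 9 times. With the replicate block, which called 6.72% of all tested genes, 5 fell. The gene that fell was Lsp1beta (FBgn0002563, chromosome 2L, 898500 to 901316), a subunit of a larval serum storage protein. It had 5.84 and 4.55 CPM at ZT 8, 1.69 and 2.14 CPM at ZT 10, and 1.86 and 1.27 CPM at ZT 12 at 18 °C. At 25 °C it had 20.3 and 45.1 CPM at ZT 8, 68.0 and 85.2 CPM at ZT 10, and 6.17 and 8.96 CPM at ZT 12. The groups did not overlap, and the fall was 9.93-fold over the 3 times (-3.31 ± 0.49, edgeR adjusted p = 0.0161).

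The yolk protein genes and apolpp were lower at 18 °C in 6 of 6 matched comparisons and did not pass without the replicate block. Yp1 ran from 6976 to 53922 CPM at 18 °C with a median of 26374, and from 30670.0 to 81886 CPM at 25 °C with a median of 58551. Its log2 difference was -1.02 ± 0.53 (edgeR adjusted p = 0.286, and 0.0272 in the blocked fit), and Yp2 and Yp3 had -0.87 and -0.94 (blocked adjusted p = 0.0402 for each). Follicle cells of the ovary express yolk protein genes too; the sums of ovary markers, with a median of 4853 TPM at 18 °C and 1655 TPM at 25 °C, are given beside this; their part in the yolk protein values was not tested. For apolpp the groups did not overlap, with 2458 to 5868 CPM at 18 °C and 6902 to 9691 CPM at 25 °C (-0.92 ± 0.23, adjusted p = 0.0602, 0.0402 in the blocked fit, and 0.00134 to 0.349 over the alternatives, with 3 of 31 under the threshold).

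Hormone signals changed at single genes. Ilp6 (FBgn0044047, chromosome X, 2331493 to 2334658), an insulin-like peptide that the fat body itself secretes, ran from 47.2 to 83.7 CPM at 18 °C with a median of 63.4, and from 25.8 to 53.0 CPM at 25 °C with a median of 36.2. It was higher at 18 °C in 6 of 6 matched comparisons and rose by 0.78 ± 0.16 on the log2 scale, 1.71-fold (edgeR adjusted p = 0.034). It was the 1 of 22 tested insulin and FoxO genes that passed, where 2.31% of all tested genes did, so the count does not set the list apart. The list's median was 0.13. Gbp1, a growth-blocking peptide that signals from the fat body, had 0.64 ± 0.16 (adjusted p = 0.0619, and 0.0429 in the blocked fit), and ImpL2, a binding protein of insulin-like peptides, 0.40 ± 0.33 (adjusted p = 0.512, and 0.0465 in the blocked fit).

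Of 23 tested nuclear receptor and juvenile hormone genes, 1 rose and 1 fell, with a median of 0.20, where 2.31% of all tested genes passed. The juvenile hormone receptor gene gce ran from 62.6 to 119 CPM at 18 °C with a median of 84.2, and from 43.7 to 66.4 CPM at 25 °C with a median of 53.0. The libraries at 18 °C of ZT 8 and ZT 10 in replicate 2 lay within the range of 25 °C, and gce rose by 0.62 ± 0.12 (edgeR adjusted p = 0.0306). Its paralog Met, the other juvenile hormone receptor, had 0.47 ± 0.11 (adjusted p = 0.0543, and 0.0257 in the blocked fit). Jheh2, a juvenile hormone epoxide hydrolase that inactivates the hormone, had 143 to 228 CPM at 18 °C, median 189, against 223 to 409 CPM at 25 °C, median 302, and fell by 0.77 ± 0.17 (adjusted p = 0.048). Jheh1, its neighbour in the same family, had -0.72 ± 0.40 (adjusted p = 0.326, and 0.0381 in the blocked fit). Among peptide receptors, named after their values were seen, the corazonin receptor gene CrzR rose by 0.71 ± 0.12, the tachykinin receptor gene TkR99D by 1.21 ± 0.23 and the pyrokinin receptor gene PK1-R by 0.60 ± 0.14 (adjusted p = 0.0234, 0.0307 and 0.0486). The ecdysone importer gene Oatp74D rose by 0.70 ± 0.10, with 87.4 to 121 CPM at 18 °C and 60.8 to 78.9 CPM at 25 °C (adjusted p = 0.0151).

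In immunity, the NF-kappaB gene Rel rose, and no gene of an antimicrobial peptide list passed. That list was not drawn up as targets of Rel, and a link between them was not tested. Rel (FBgn0014018, chromosome 3R, 9044183 to 9047977), the transcription factor of the Imd pathway, ran from 165 to 438 CPM at 18 °C with a median of 257, and from 123 to 191 CPM at 25 °C with a median of 136. The ranges overlapped across times, and within each ZT both libraries at 18 °C lay above both at 25 °C. The rise was 0.85 ± 0.17, or 1.80-fold (edgeR adjusted p = 0.0353), and Rel was the 1 of 28 tested recognition and signalling genes that passed. Of 23 tested antimicrobial peptide genes, 0 passed in either direction, where 2.31% of all tested genes did. Among them 11 were higher and 12 lower at 18 °C, and their median was -0.01, which became 0.13 on the log2(TPM + 1) scale. Outside these lists, and named after their values were seen, the antiviral peptide gene Vago rose 2.09-fold, the drosomycin-like gene Drsl4 2.05-fold and the thioester protein gene Tep3 1.64-fold (adjusted p = 0.0307, 0.0298 and 0.0484).

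Haemocyte genes were higher in part. Of 15 tested haemocyte markers, 2 rose, the phagocytic receptor genes eater (1.12 ± 0.24, edgeR adjusted p = 0.0397) and NimC2 (0.73 ± 0.14, adjusted p = 0.0326), 13 were higher at 18 °C, and the median was 0.46. Over all tested genes 2.31% passed, and 6.72% did with the replicate block. By replicate the markers had medians of 0.73 (replicate 1) and 0.15 (replicate 2), the block called 3 markers, and 0 passed with ovary marker RNA as a covariate or without the 4 libraries with gut RNA. For eater the libraries at 18 °C ran from 16.5 to 61.0 CPM with a median of 22.8, and those at 25 °C from 9.98 to 15.5 CPM with a median of 12.6. The summed markers ran from 580.2 to 929 TPM at 18 °C and from 314 to 759 TPM at 25 °C, and none of the 17 was at 0 throughout. Also active in blood cells, and named after their values were seen, the engulfment receptor gene drpr and the growth factor receptor gene Pvr, rose by 0.83 ± 0.18 and 0.65 ± 0.15 (adjusted p = 0.0414 and 0.048). The part of blood cells attached to the tissue in these differences, and in that of Rel, was not tested.

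Over all tested genes 2.31% passed, so most genes of any kind did not, detoxification genes included. Differences between detoxification families were not tested. Of 17 tested UDP-glycosyltransferases, which attach sugars to foreign and endogenous compounds, 3 rose and 0 fell, with a median of 0.36. Ugt36D1 (FBgn0032713, chromosome 2L, 18823548 to 18826716) ran from 85.3 to 145 CPM at 18 °C with a median of 108, and from 54.0 to 96.2 CPM at 25 °C with a median of 59.0, and rose by 0.77 ± 0.10 (edgeR adjusted p = 0.0151). Within each ZT its libraries at 18 °C lay above those at 25 °C. Ugt36A1 and Ugt37D1 rose by 0.91 ± 0.16 and 1.06 ± 0.22 (adjusted p = 0.0298 and 0.0387).

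Cytochrome P450 genes went both ways, with 2 of 69 higher, 4 lower and a median of 0.12, where 2.31% of all tested genes passed. With the replicate block, which called 6.72% of all tested genes, 9 were higher and 6 lower. Cyp4s3 (FBgn0030615, chromosome X, 15113302 to 15116542) ran from 2.31 to 12.0 CPM at 18 °C with a median of 4.65, and from 11.6 to 26.9 CPM at 25 °C with a median of 21.9. It fell by 1.96 ± 0.27, 3.90-fold (edgeR adjusted p = 0.0151), and the ranges touched only between ZT 10 at 18 °C and ZT 12 at 25 °C. Cyp6a8 fell by 1.99 ± 0.42, Cyp304a1 by 1.81 ± 0.29 and Cyp4e3 by 1.15 ± 0.16 (adjusted p = 0.0402, 0.0234 and 0.0151). The P450 genes that rose were Cyp4ac1 (1.16 ± 0.20, adjusted p = 0.0298) and Cyp4g15 (0.69 ± 0.14, adjusted p = 0.0361). Of 29 tested glutathione S-transferases 0 passed, with a median of -0.06, which became 0.10 on the log2(TPM + 1) scale, and 1 was lower with the block.

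A group of hydrolases, named after their values were seen, fell. The carboxylesterase genes Est-Q, alpha-Est5 and alpha-Est8 fell by 1.13 ± 0.19, 0.74 ± 0.10 and 0.69 ± 0.13 on the log2 scale (edgeR adjusted p = 0.0245, 0.0151 and 0.031). The neprilysin-like peptidase genes Nepl14, Nepl15 and Nep6 fell by 0.89 ± 0.19, 0.76 ± 0.13 and 0.65 ± 0.13 (adjusted p = 0.0432, 0.0276 and 0.0387). Nepl15 had 82.8 to 123 CPM at 18 °C, median 95.4, against 147 to 199 CPM at 25 °C, median 164. The groups of Est-Q, alpha-Est5, Nepl15 and Nep6 did not overlap, and those of alpha-Est8 and Nepl14 did.

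Lists that describe stress and growth had few or no called members, where 2.31% of all tested genes were called. At that share most small lists hold few called genes, so these counts do not set the lists apart. None of 25 cytosolic chaperone genes, 23 endoplasmic reticulum folding genes, 21 autophagy genes or 22 antioxidant genes passed without the replicate block. With it, 1 chaperone gene (l(2)efl) and 3 antioxidant genes (Prx3, maf-S and MsrA) were lower and 1 autophagy gene (Atg13) was higher. Their medians were 0.09, -0.09, -0.0018 and -0.06, and those of the last 3 became 0.08, 0.14 and 0.09 on the log2(TPM + 1) scale. By replicate the chaperone list had medians of 0.68 (replicate 1) and -0.37 (replicate 2), and over both it was -0.0029 with the block and -0.03 without the 4 libraries with gut RNA. None of 8 Turandot and cold acclimation genes passed either, with a median of 0.68. Of 82 cytosolic ribosomal protein genes 0 passed, yet 82 were lower at 18 °C, with a median of -0.23. Mitochondrial ribosomal protein genes had 1 of 75 called, mRpL53, which fell by 0.55 ± 0.10 (edgeR adjusted p = 0.0298), and 72 of 75 were lower, with a median of -0.24. With the block, 5 mitochondrial ribosomal protein genes were lower, as were 1 cytosolic ribosomal and 1 oxidative phosphorylation gene. Of 69 nuclear-encoded oxidative phosphorylation genes 0 passed and 64 were lower, with a median of -0.23. These 3 medians shrank to -0.07, -0.07 and -0.08 on the log2(TPM + 1) scale, below the median of all genes on both scales. At ZT 10 alone the median of the cytosolic ribosomal list was 0.12 and at ZT 8 and 12 it was -0.40 and -0.42.

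The genes with the highest and lowest log2 differences, among called genes whose log2 CPM averaged 3 or more and that had one sign in 6 of 6 matched comparisons, came from no single process. After Sgp, the highest were CG15553 (2.02 ± 0.32), Snmp1, CG42269 (1.63 ± 0.32), CG6409 (1.62 ± 0.32), CG8112 (1.58 ± 0.27), yellow-c (1.39 ± 0.24) and CG4927 (1.23 ± 0.22). CG6409 (FBgn0036106, chromosome 3L, 10880699 to 10882386) ran from 614 to 1539.9 CPM at 18 °C with a median of 889, and from 174 to 582 CPM at 25 °C with a median of 295, without overlap (edgeR adjusted p = 0.0333). CG8112, which belongs to the sterol O-acyltransferase family, ran from 43.9 to 95.3 CPM at 18 °C and from 14.8 to 41.5 CPM at 25 °C, also without overlap (adjusted p = 0.0276). After Lsp1beta, Cyp6a8 and Cyp4s3, the lowest were CG34291 (-1.78 ± 0.19), Srg3 (-1.61 ± 0.31), CG7227, CG8654 (-1.50 ± 0.27) and Agpat4. CG34291 (FBgn0085320, chromosome 3R, 26425290 to 26425781) ran from 15.0 to 35.1 CPM at 18 °C with a median of 24.4, and from 38.9 to 105 CPM at 25 °C with a median of 89.2, without overlap (adjusted p = 0.0151). Over all tested genes, 112 (1.26%) had non-overlapping CPM with 18 °C on top and 135 (1.52%) with 18 °C below, and among the called genes these were 67 of 129 and 56 of 76. The gene wake, known in flies for a role in sleep onset and named after its values were seen, ran from 24.6 to 51.7 CPM at 18 °C and from 12.9 to 17.7 CPM at 25 °C and rose by 1.16 ± 0.16 (adjusted p = 0.0151).

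The next question was whether the difference between temperatures changed from ZT 8 to ZT 12. No gene passed the test of the interaction of temperature with hour (edgeR, 0 of 8864, 0%), with 89 genes (1%) at an unadjusted p under 0.05, and DESeq2 called 3. The 205 called genes kept their sign at each of the 3 times, but they were called on the mean difference over these same libraries. That choice favours 1 sign throughout, so neither it nor their medians by time show that the difference stayed constant. The medians of the 129 higher genes were 0.97, 0.70 and 0.84 at ZT 8, 10 and 12, and those of the 76 lower genes were -0.87, -0.71 and -0.80. Tested at one time alone, with 2 libraries against 2, 0 genes passed at ZT 8 and ZT 12 and 1 passed as lower at ZT 10 (0.0113%). Among the genes named above, Lsp1beta had the widest spread over times, with log2 differences of -2.64, -5.35 and -2.19 at ZT 8, 10 and 12 (edgeR unadjusted p = 0.00102 and adjusted p = 0.9998 for the interaction). The other genes with the 8 smallest p were sim, Cp15, CG2065, Cad74A, Nox, Nsun5 and Cp38, with unadjusted p of 0.000742 for sim to 0.00772 for Cp38. Cp15 and Cp38 encode chorion proteins of the eggshell, made in the ovary, whose marker RNA was uneven between libraries, and its part in these values was not tested. On simulated data this test recovered 0% of 2-fold and 20% of 4-fold changes in the temperature difference between times, so most differences of that size were not detectable with 12 libraries.

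The last comparison asked whether the late day differed from the rest of the day. In 34 wild-type libraries of the other 9 times, none of which is among the 12, the 205 genes had the same sign in 205 cases. Of the 129 higher genes 126 also passed there, against 20.1% of all tested genes, and of the 76 lower genes 68 passed, against 22.9% (43% in either direction). The medians of the called genes were 0.86 in the late day and 0.93 at the other times for the higher genes, and -0.78 and -0.63 for the lower genes. When the temperature difference in the late day was set against that at the other 9 times in one fit over 46 libraries, 0 of 8864 genes passed (edgeR, 0%), with 483 (5.45%) at an unadjusted p under 0.05, and DESeq2 called 14. No gene was thus shown to differ between the late day and the other times. That fit recovered 56% of simulated 2-fold differences between the time windows, in data where it called 118 genes. With 0 genes called, as in the real data, the adjusted threshold asks for a smaller unadjusted p. The share recovered can therefore be lower in the real data than in the simulated data.

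The 11 genes that passed in the late day and not at the other 9 times were Clk, Amnionless, CG5707, NimC2, Nep6, jtb, CG13907, CG13667, CG10738, pyd3 and Targ2. Clk had the largest gap between the 2 sets, with -1.13 ± 0.18 in the late day and -0.16 ± 0.12 at the other times (adjusted p = 0.281 there). The gap itself was -0.96 ± 0.23, with an unadjusted p of 0.00028 and an adjusted p of 0.825 (edgeR; 0.052 to 1 over the alternatives). By time of day, the log2 difference of Clk was -0.17 ± 0.21 at ZT 2 to 6, -0.36 ± 0.20 at ZT 14 to 18 and 0.06 ± 0.21 at ZT 20 to 24. For tim it was 1.06 ± 0.30, -0.03 ± 0.28 and -1.55 ± 0.32 at the same windows, against 0.98 ± 0.24 in the late day, and the gap between the late day and the other 9 times was 1.17 ± 0.33 (unadjusted p = 0.00145, adjusted p = 0.859, 0.0785 to 1 over the alternatives). For cwo it was 0.89 ± 0.16, 0.68 ± 0.15 and 0.35 ± 0.16, of 1 sign throughout. Ate1, an arginyltransferase gene, had the smallest p of this test, with -0.39 ± 0.12 in the late day, 0.22 ± 0.06 at the other times and an adjusted p of 0.397, and the alternatives gave it adjusted p-values of 0.00419 (DESeq2) to 0.841. The others with the smallest p, beside Clk and CG17560, were Cad88C, Vml, Vm32E, Hsp27 and dec, of which Vml, Vm32E and dec encode eggshell proteins and had gaps of 7.82, 7.32 and 6.86 on the log2 scale, beside the uneven ovary RNA.

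**Figure D5:**
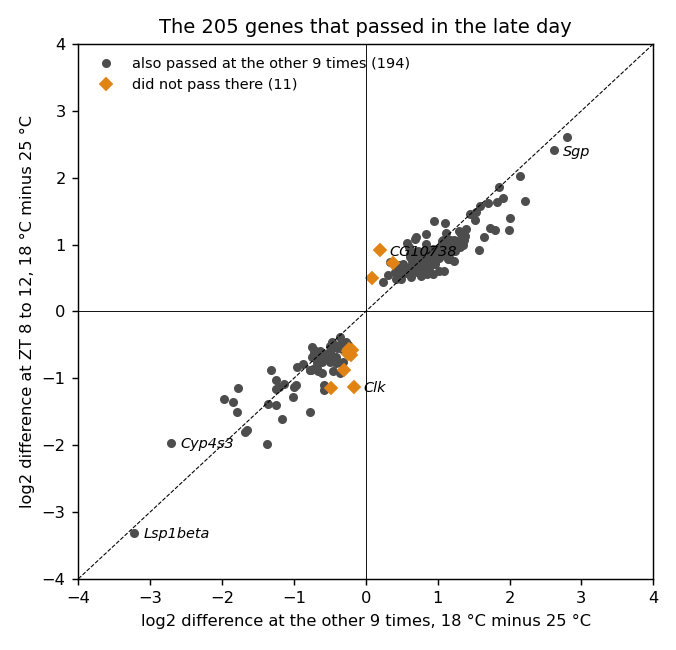
Log2 difference between 18 °C and 25 °C at ZT 8, 10 and 12 (vertical axis) against that at the other 9 times (horizontal axis) for the 205 called genes, 1 point per gene, with the line of equal differences dashed. Grey points are the 194 genes that also passed at the other times and orange diamonds the 11 that did not, and Clk lies at -1.13 on the vertical and -0.16 on the horizontal axis.

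Lists of other tissues are given beside this, without a called gene. Ovary markers, with 31 tested genes, had a median log2 difference of -0.12 in the late day and -2.08 at the other 9 times. The late-day value had no stable sign, with medians of -0.45, 0.20 and 0.02 at ZT 8, 10 and 12, and 0.19 without the 4 libraries with gut RNA. Gut markers, with 14 tested genes of 36, had a median of 2.36 in the late day and -0.86 at the other times. These 14 passed a filter run on the 12 late-day libraries, where gut sums had medians of 1171 TPM at 18 °C and 48.6 TPM at 25 °C. All 14 were higher at 18 °C, and the filter can favour that direction, so the 2 medians are not a fair contrast of the times. Without the 4 libraries with over 1000 TPM of gut RNA the late-day median was 3.52, and at ZT 8, 10 and 12 it was 2.87, -0.92 and 8.45. Acyl reductases and elongases had 0.30 and 0.74, and CG17560 of that list had 0.08 ± 0.17 in the late day and 0.98 ± 0.13 at the other times, a gap of -0.90 that did not pass (edgeR adjusted p = 0.859).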

How the data were processed

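Libraries were made from poly(A)-selected RNA with a TruSeq kit and sequenced on an Illumina HiSeq instrument, per the labels' protocols. The authors used kallisto 0.46.2, per the submitters' processing notes, and deposited unscaled estimated counts for each gene, and TPM values, scaled for transcript length and library total, over 13969 genes. The sources used here name neither a transcriptome release nor a genome build. Of the nonzero deposited counts of the 12 libraries, 80.8% lay within 0.001 of a whole number. Names of 13950 gene IDs and all coordinates come from BDGP6.54, a separate source.

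The estimated counts were first rounded to whole numbers. With temperature as the group, edgeR's filterByExpr retained 8864 genes and dropped 5105. TMM scaling and quasi-likelihood testing used edgeR 4.0.16 under R 4.3.3, and p-values received Benjamini-Hochberg adjustment over all tested genes and a threshold of 0.05. CPM values are TMM-scaled, SE is the log2 difference divided by the root of F, and marker sums are sums of deposited TPM. The late-day test had ZT as a factor, the hour test a mean for each temperature and ZT, and the test against other hours the same over 46 libraries, leaving out a pair of identical columns (18 °C, replicate 1, ZT 2 and ZT 20). Total counts per library are in the description of the data, and errors reflect differences among libraries, counting error included. The series' design text calls the 2 samplings independent without saying what was separate, so p-values measure only the spread between these pools of flies.

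Deviations of libraries with the same replicate number correlated across temperatures at 0.34, 0.29 and 0.49 at ZT 8, 10 and 12. The main test has no replicate term, so its calls, list counts and SE leave this pairing out. Only the blocked fit, which called 596 genes (6.72%), takes the numbers as pairs. Blocked values are printed where they change a call of a gene or list described. The members, gene lists and comparisons were chosen with earlier results of these data known. Named genes were the core clock, up to 2 called members of each other list by adjusted p, the 8 highest and 8 lowest log2 differences where log2 CPM averaged 3 or more with one sign in 6 of 6 matched pairs, and the 8 smallest p of each other test. Every other gene named was chosen after its values were seen. Alternatives were DESeq2 1.42.0, RLE scaling, testing without a filter or only where log2 CPM averaged 3 or more, limma-trend (limma 3.58.1) on log2(TPM + 1) and log2(TPM + 0.1), the replicate block, an adjusted p under 0.01, a 2-fold minimum, an ovary marker covariate, all wild-type libraries for the spread, and libraries, replicates or times left out. A run without 4 libraries with gut RNA was added after seeing the data. On data simulated with 50 changed genes per fold size, the late-day test recovered 20%, 48%, 86% and 90% of 1.5-, 2-, 3- and 4-fold changes. Python 3.11.15 drew the plots.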

Additional observations from a re-analysis of the deposited data

Results flagged for a closer look

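In 218 sets of 6 libraries, the highest or lowest library was set against its nearest neighbour, and its gap as a share of the whole range was compared with Dixon's critical value. In 19 sets the gap was above it, and chance alone gives about 1 in 20. No explanation of these values was tested.

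Among transcripts at 18 °C, tim had 673 CPM (next highest 422) and Desat1 14151 CPM (next 9527) at ZT 12, replicate 2. CG42269 had 28.6 CPM (next 16.4) and PK1-R 13.8 CPM (next 9.94) at ZT 8, replicate 1, and eater had 61.0 CPM (next 32.6) at ZT 12, replicate 1. Among transcripts at 25 °C, Clk had 28.1 CPM at ZT 8, replicate 1 (next 18.5), and Cyp304a1 had 13.4 CPM at ZT 10, replicate 2 (next 6.92), where scb was low at 22.1 CPM (next 31.2). The library at 25 °C of ZT 12, replicate 1, was low for Agpat4 at 75.3 CPM (next 107) and for alpha-Est8 at 48.7 CPM (next 83.4), and high for Met at 25.0 CPM (next 17.9) and for Rel at 191 CPM (next 149).

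Marker sums stood apart as well. At 18 °C these were Malpighian tubule markers at 1014 TPM (ZT 8, replicate 1), spermatheca markers at 43.8 TPM (ZT 10, replicate 1), oenocyte and epidermis markers at 60170.0 TPM (ZT 12, replicate 1) and gut markers at 7480.0 TPM (ZT 12, replicate 2). At 25 °C they were ovary markers at 4271 TPM (ZT 8, replicate 2), and gut markers at 4742 TPM and photoreceptor and head markers at 1545 TPM in the library of ZT 10, replicate 1. Spermatheca markers were higher still at 25 °C, at 113.8 TPM (ZT 8, replicate 1) and 101.3 TPM (ZT 10, replicate 1). Those 2 libraries lie near each other, so the rule flagged neither.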

How the results depend on the processing

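Against 205 genes called in the late day (129 higher, 76 lower at 18 °C), DESeq2 called 776 (519 and 257), the replicate block 596 (346 and 250), limma-trend on log2(TPM + 1) 382 (319 and 63), on log2(TPM + 0.1) 372 (313 and 59) and with a mean TPM of at least 1 376 (312 and 64). No filter gave 111 (66 and 45), an ovary marker covariate 103 (65 and 38), a 2-fold minimum 64 (40 and 24) and an adjusted p under 0.01 gave 0 in both directions. Without replicate 1 or 2 the count was 2 (1 and 1) or 0, over single libraries left out it ranged from 0 to 229 (higher 0 to 162, lower 0 to 67), and without ZT 8, ZT 10, ZT 12 or, chosen after seeing the data, the 4 libraries with gut RNA it was 0 by edgeR. RLE size factors (215), log2 CPM averaging 3 or more (225) and the spread of all wild-type libraries (248) stayed within 1.5 times. The 72 named genes that passed kept their sign in each of these alternatives, though they were chosen for passing. Without the gut-rich libraries their log2 differences were a median 0.99 of the reported ones. Gut marker sums in the libraries left were 45.2, 489 and 533 TPM at 18 °C and 27.3 to 99.9 TPM at 25 °C. The ratio is thus no test of carried-over gut RNA, whose part in these differences was not tested. For the test by hour, DESeq2 called 3 genes and for the late day against other times 14, and the other alternatives run called 0, the replicate block included.

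Signs turned at genes that did not pass. Without replicate 1 and without replicate 2, vri had 0.84 and -0.0021, CG17560 0.20 and -0.020, and cyc -0.12 and 0.015. For cyc the TPM settings gave 0.12, 0.12 and 0.12, and leaving out the libraries at 25 °C of ZT 10 or ZT 12, replicate 2, gave 0.00080 and 0.0019. The gap of per between the late day and other times was -0.10 without the gut-rich libraries. The cause was not tested. Tests by hour and against other times could not be fitted without replicate 1 or 2, since no residual degrees of freedom remain.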

Other observations

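The tissue was collected on its epidermis, and 5 genes of junctions, matrix or cuticle, of which 4 were chosen because they had passed, are given here as single genes. The tricellular junction gene bark ran from 14.6 to 26.6 CPM at 18 °C and from 8.44 to 12.2 CPM at 25 °C and rose by 0.91 ± 0.13 on the log2 scale (edgeR adjusted p = 0.0161). The integrin gene scb rose by 0.81 ± 0.18, the matrix protein gene conv by 1.46 ± 0.28, the cuticle protein gene Cpr60D by 0.94 ± 0.21 and the chitin-binding protein gene obst-A by 1.05 ± 0.24 (adjusted p = 0.0484, 0.0309, 0.0484 and 0.0484). The oenocyte and epidermis markers had 1 of 14 tested genes called, obst-A (2 with the block), where 2.31% of all tested genes were called (6.72% with the block). Their median was 0.88, with 1.28 in replicate 1 and 0.34 in replicate 2. Their sums ran from 30270.0 to 60170.0 TPM at 18 °C and from 24710.0 to 57220.0 TPM at 25 °C. The part of attached epidermis in these differences was not tested.

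Lists of central metabolism had no called gene without the replicate block, where 2.31% of all tested genes were called (6.72% with the block). With it, the trehalose transporter gene Tret1-2 was higher (blocked adjusted p = 0.0348), as were 2 amino acid breakdown genes (Faa and P5CDh1), and 4 amino acid breakdown genes were lower (Ahcy, Gs2, v and Uro). Of 16 glycogen, trehalose and sugar transport genes 14 were higher at 18 °C, with a median of 0.21, and of 17 glycolysis genes 14 were lower, with a median of -0.24. Of 25 amino acid breakdown genes 13 were lower, with a median of -0.07, which became 0.05 on the log2(TPM + 1) scale. Among them the urate oxidase gene Uro had -2.21 ± 0.53 (edgeR adjusted p = 0.0562, and 0.0398 in the blocked fit). Uro is also in the list of markers of the Malpighian tubules, which the dissection removes. Of 20 tested tubule markers, 9 were higher and 11 lower at 18 °C, with a median of -0.16. Tubule marker sums ran from 228 to 1014 TPM at 18 °C and from 347 to 619 TPM at 25 °C. The part of tubule RNA in the value of Uro was not tested. Muscle markers were higher in 24 of 25 tested genes, with a median of 0.35. It was 0.50 in replicate 1 and 0.12 in replicate 2, and 0.69, 0.22 and 0.12 at ZT 8, 10 and 12. Muscle marker sums ran from 4994 to 14030.0 TPM at 18 °C, highest at ZT 8, replicate 1. At 25 °C they ran from 4347 to 7089 TPM. The block called 2 of these markers, Mf and Zasp66, as higher. The potassium-chloride cotransporter gene kcc, also chosen after its values were seen, ran from 65.2 to 90.9 CPM at 18 °C and from 32.8 to 51.0 CPM at 25 °C and rose 1.74-fold (adjusted p = 0.0198).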
